A study of Mus musculus with 6 samples.

Results

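The genes examined are 9 that encode proteins of the contacts between endothelial cells, namely *Cdh5*, *Cldn5*, *Ocln*, *Tjp1*, *Esam*, *F11r*, *Jam2*, *Jam3* and *Pecam1*, chosen by name from the 24972 gene symbols in the deposited table. They were measured by RNA-Seq in isolated lung endothelial cells (iLECs) of mouse pups at postnatal day 7 (P7), in 3 control and 3 *Atp6ap2* iECKO libraries. *Atp6ap2* encodes the (pro)renin receptor. All 6 libraries are labelled as male with a floxed *Atp6ap2* allele (fl/Y), as C57BL/6 by strain (mixed with CD1 according to the methods), and all pups received 100 µg of tamoxifen on P1, P2 and P3. The controls carried no Cre, and the *Atp6ap2* iECKO pups also carried *Cdh5-CreERT2*, a Cre recombinase that acts in endothelial cells once tamoxifen is given. The Cre transgene is driven by regulatory sequence of *Cdh5*, which is itself one of the 9 genes, and no group had Cre without the floxed allele. The iLECs were captured from digested lung with antibody to CD31, the product of *Pecam1*, so the level of this gene was selected for in both genotypes. The labels do not say whether a library was made from 1 pup or from several, so the P values describe the spread between these libraries, which may be partly technical.

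Endothelial cells are held to each other by adherens junctions, tight junctions and further adhesion molecules along the cell border. VE-cadherin, the product of *Cdh5*, binds its like on the neighbouring cell and is tied through catenins to actin. Claudin-5 (*Cldn5*) and occludin (*Ocln*) span the membrane in tight junctions and bind the scaffold ZO-1 (*Tjp1*) inside the cell. The junctional adhesion molecules JAM-A (*F11r*), JAM-B (*Jam2*) and JAM-C (*Jam3*), together with ESAM and PECAM-1, are immunoglobulin-type receptors that also serve the passage of leukocytes. In the lung this barrier limits the leak of fluid and protein into the airspace. The comparison asks whether the RNA of these genes differed when *Atp6ap2* was deleted from endothelial cells.

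The values are estimated counts that the authors normalized before deposit, called normalized counts here, and their totals per library were 28725799, 27813574 and 26359661 in the controls and 27221581, 27104145 and 26243878 in *Atp6ap2* iECKO. The deleted gene was measured at 7490, 5815 and 5681 normalized counts in the controls and at 4220, 2336 and 1982 in *Atp6ap2* iECKO. The groups did not overlap, and *Atp6ap2* fell by 1.22 on the log2 scale (SE 0.26, limma adjusted *P* = 0.0306, n = 3 per genotype). Its call held without *Atp6ap2* iECKO library 1 and was lost without any 1 of the other 5 libraries (adjusted *P* = 0.0628 to 0.104 by limma), while the log2 difference in those 5 fits lay between -1.29 and -0.999. *Xist*, the RNA of the inactive X chromosome of female cells, was at 37704, 44402 and 31.7 normalized counts in the controls and at 39442, 19.3 and 47487 in *Atp6ap2* iECKO. In 4 of the 6 libraries, 2 of each genotype, *Xist* therefore went against the label fl/Y.

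Per length of transcript, *Cdh5* and *Cldn5* were the most abundant of the 9 genes and *Jam3* the least. Levels were compared as the normalized count per kilobase of exon, scaled to the same total in each library as TPM values are. On that scale *Cdh5* was at 3490 (2950 to 4090 over the 3 control libraries) and *Cldn5* at 3450 (3020 to 4060), which ranked 9 and 10 among all genes with a length. *Pecam1* followed at 1340 (1270 to 1430), *Tjp1* at 736 (647 to 812), *Esam* at 719 (678 to 764) and *F11r* at 560 (523 to 600). *Jam2* at 137 (107 to 180), *Ocln* at 95.5 (83.8 to 111) and *Jam3* at 24.6 (19.4 to 27.8) stood at the lower end. For reference, the endothelial receptor gene *Kdr* was at 759 on this scale. The level of *Cdh5* was 142 times that of *Jam3*. Between neighbours in this order, the control ranges of *Cdh5* and *Cldn5*, of *Tjp1* and *Esam*, and of *Jam2* and *Ocln* overlapped, and those of the other neighbours did not. In the *Atp6ap2* iECKO libraries the means were 3740 for *Cdh5*, 3540 for *Cldn5*, 1500 for *Pecam1*, 657 for *Tjp1*, 757 for *Esam*, 537 for *F11r*, 108 for *Jam2*, 87.3 for *Ocln* and 20.4 for *Jam3*. The order was thus the same except that *Esam* stood above *Tjp1*.

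**Figure D1:**
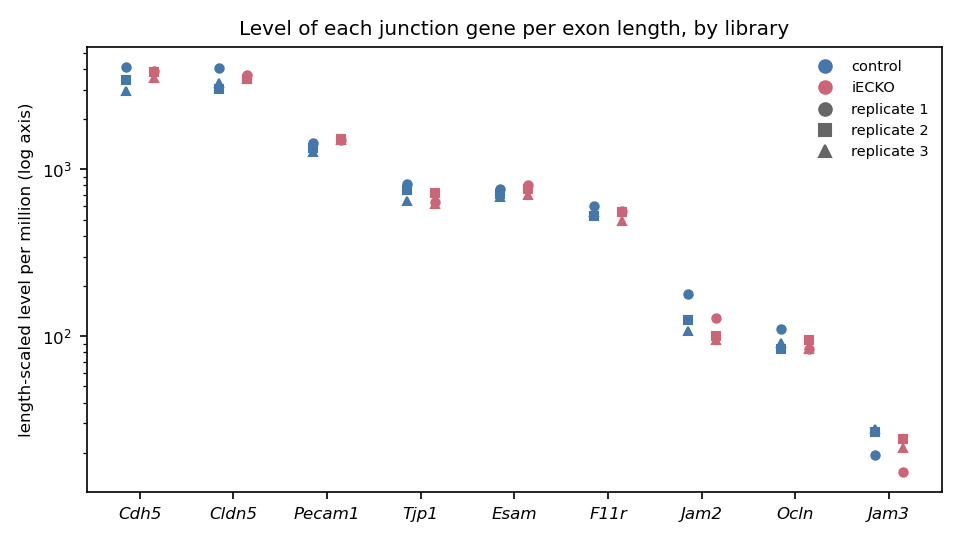
Level of the 9 junction genes per kilobase of exon, scaled to the same total in each library, on a log axis. Points are single libraries, 3 control and 3 *Atp6ap2* iECKO. *Cdh5* and *Cldn5* lie together at the top, and *Jam3*, at 24.6 in the controls, lies lowest.

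None of the 9 genes passed the test between genotypes that was fitted across all genes. All 9 passed the filter on low values, and limma called 0 of them lower and 0 higher at an adjusted *P* below 0.05, with 0 at an unadjusted *P* below 0.05. Across the 14456 genes tested, 8.25% were called, 4.97% lower and 3.28% higher in *Atp6ap2* iECKO. For 0 of the 9 genes did the control and *Atp6ap2* iECKO values lie apart without overlap, against 29.8% of all genes tested. By the sign of the fitted difference, 5 were lower and 4 higher in *Atp6ap2* iECKO, with a median log2 difference of -0.11. The median size of the difference, ignoring sign, was 0.12 for the 9 genes and 0.21 for all genes tested. Summed over the 9 genes, the controls held 281309, 234355 and 213338 normalized counts and *Atp6ap2* iECKO 253760, 249622 and 227179. These sums overlapped, with means of 243001 and 243520. With only the 4 libraries that hold *Xist*, the log2 differences of the 9 genes lay between -0.50 and 0.05. In that comparison of 2 against 2 limma called 0 genes lower and 1 higher of all 14456, so the calls there say nothing about these 9. Since the cells were measured in bulk, fewer cells of a type and less RNA per cell cannot be told apart in any of these values.

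**Figure D2:**
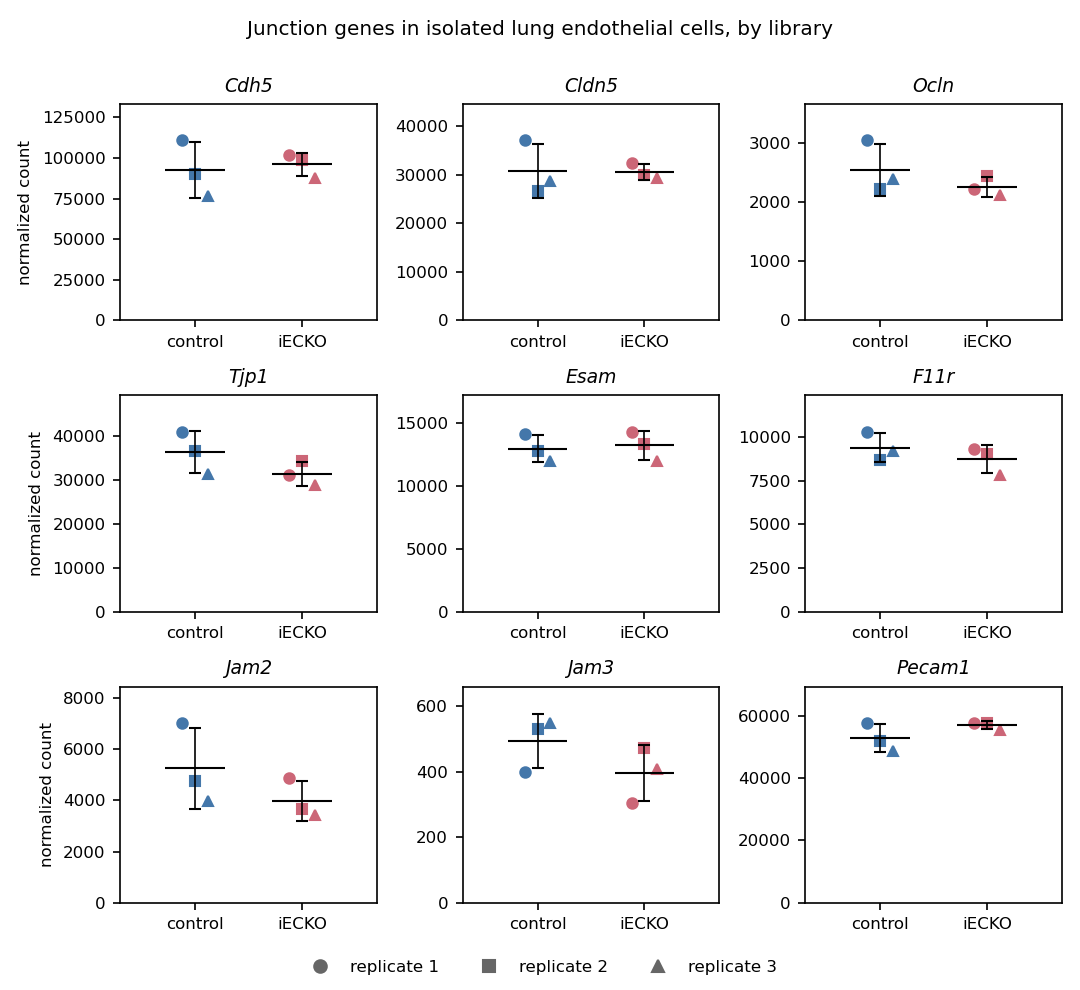
Normalized counts of each junction gene in the 3 control and 3 *Atp6ap2* iECKO libraries, 1 panel per gene, with the mean and SD of each genotype. In all 9 panels the values of the genotypes overlap, and control library 1 is the highest control in 8 of them.

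*Cdh5* (GRCm38 chr8:104101625-104144511, plus strand) was at 110813, 90295 and 76599 normalized counts in the controls and at 101503, 98650 and 87877 in *Atp6ap2* iECKO. The *Atp6ap2* iECKO values all lay between the highest and the lowest control. The log2 difference was 0.07 (SE 0.17, 95% interval -0.32 to 0.45, adjusted *P* = 0.853 by limma), so a fold of 0.80 to 1.37 remained within the interval. A short antisense gene, *Gm29682*, overlaps *Cdh5* and had a mean of 1.3 normalized counts, and the library kit does not mark strand. *Pecam1* (chr11:106654217-106750628, minus strand) was at 57593, 51927 and 48730 normalized counts in the controls and at 57759, 57755 and 55535 in *Atp6ap2* iECKO. Control library 1 reached into the range of the *Atp6ap2* iECKO libraries, while the other controls lay below it. Its log2 difference was 0.12 (SE 0.11, 95% interval -0.15 to 0.38, adjusted *P* = 0.599 by limma).

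Among the tight junction genes, *Cldn5* (chr16:18776847-18778262, plus strand) was at 37059, 26653 and 28666 normalized counts in the controls and at 32454, 30011 and 29271 in *Atp6ap2* iECKO. The means, 30793 ± 5519 and 30579 ± 1666 (SD, n = 3 each), lay closer together than the control libraries did to each other. The log2 difference was 0.00 (SE 0.14, 95% interval -0.32 to 0.32), which leaves a fold of 0.803 to 1.25. *Ocln* (chr13:100496507-100552718, minus strand) was at 3037, 2208 and 2378 normalized counts in the controls and at 2212, 2427 and 2107 in *Atp6ap2* iECKO. Its spread in the controls came from library 1, with the other values of both genotypes between 2107 and 2427. The log2 difference was -0.17 (SE 0.13, 95% interval -0.46 to 0.13, adjusted *P* = 0.484 by limma). *Tjp1* (chr7:65296165-65527781, minus strand) was at 40928, 36532 and 31260 normalized counts in the controls and at 30987, 34226 and 28741 in *Atp6ap2* iECKO. Control library 3 and *Atp6ap2* iECKO library 2 were the values that crossed. The log2 difference of *Tjp1* was -0.21 (SE 0.13, 95% interval -0.51 to 0.10, adjusted *P* = 0.393 by limma).

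Among the immunoglobulin-type receptors, *Esam* (chr9:37528078-37538319, plus strand) was at 14144, 12787 and 12009 normalized counts in the controls and at 14341, 13378 and 12006 in *Atp6ap2* iECKO. The ranges of the genotypes nearly coincided. For *Esam* the log2 difference was 0.03 (SE 0.10), with a 95% interval of -0.21 to 0.27. *F11r* (chr1:171437535-171464603, plus strand) was at 10307, 8689 and 9164 normalized counts in the controls and at 9330, 9032 and 7817 in *Atp6ap2* iECKO. Here *Atp6ap2* iECKO library 3 was lowest and control library 1 highest, and the other libraries were mixed. For *F11r* the log2 difference was -0.11 (SE 0.10, 95% interval -0.34 to 0.13, adjusted *P* = 0.591 by limma).

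*Jam2* and *Jam3*, which encode binding partners of each other, had the widest intervals of the 9 genes. *Jam2* (chr16:84774123-84825928, plus strand) was at 7026, 4733 and 3981 normalized counts in the controls and at 4868, 3669 and 3414 in *Atp6ap2* iECKO. Library 1 was the highest of each genotype, and that of *Atp6ap2* iECKO lay above the other controls. The log2 difference was -0.37 (SE 0.21, 95% interval -0.87 to 0.12, adjusted *P* = 0.345 by limma), a level of 0.772 times the control with an interval of 0.548 to 1.09. With 1 library left out, this difference lay between -0.55 and -0.14, the latter without control library 1. With the replicate number as a block, *Jam2* was called lower (adjusted *P* = 0.042 by limma), although the labels give no shared origin for that number. *Jam3* (chr9:27097384-27155421, minus strand) was at 400.4, 531.1 and 550.3 normalized counts in the controls and at 305.1, 473.7 and 410.4 in *Atp6ap2* iECKO. It was the 1 gene of the 9 in which control library 1 was the lowest control. For *Jam3* the log2 difference was -0.33 (SE 0.20, 95% interval -0.78 to 0.13, adjusted *P* = 0.37 by limma). It was -0.15 without *Atp6ap2* iECKO library 1 and reached -0.47 without control library 1.

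**Figure D3:**
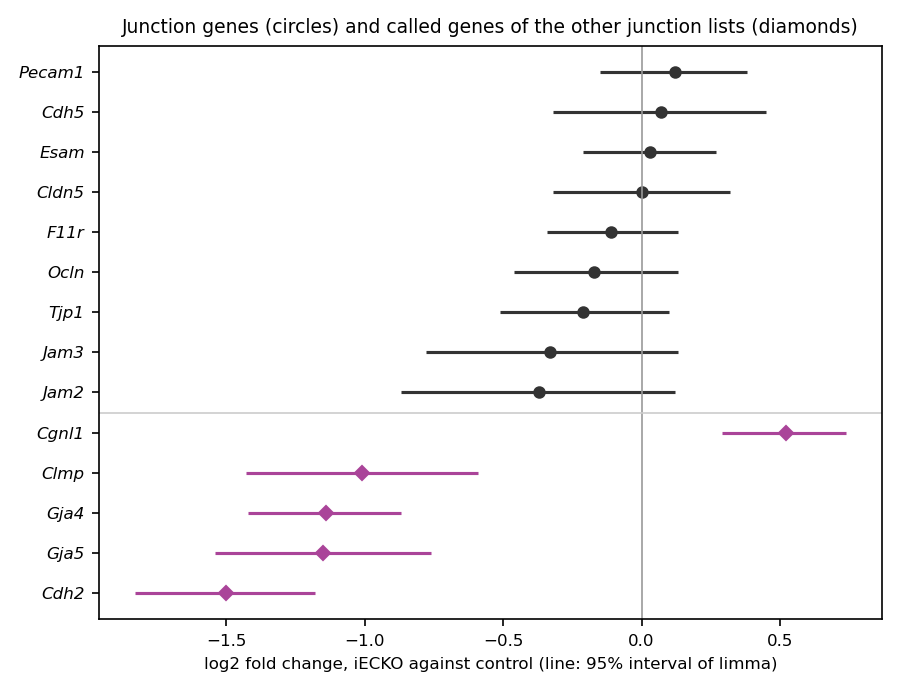
Log2 difference (*Atp6ap2* iECKO minus control) with its 95% interval from limma for the 9 junction genes and for the 5 genes of the other junction lists past the threshold (diamonds). The intervals of all 9 genes include 0, that of *Jam2* reaching from -0.87 to 0.12, while *Cdh2*, *Gja4*, *Gja5* and *Clmp* lie below 0 and *Cgnl1* above it.

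The sizes of the changes called elsewhere stand beside these intervals as a description. Among the 5292 genes with a mean of at least 1000 normalized counts, limma called 520, and the smallest log2 size called was 0.28, with a median of 0.59. For the 8892 genes with a mean of at least 300, a bound that *Jam3* also passes, 912 were called, again with 0.28 as the smallest size. The median standard error of the genes in these classes was 0.10 and 0.11, and the standard errors of the 9 genes lay between 0.10 (*Esam*, *F11r*) and 0.21 (*Jam2*). The smallest size called belongs to the gene that had it and need not be a size that the test would call in these 9. The spread within the controls differed between the 9 genes. The coefficient of variation of the control libraries was lowest for *Esam* (8.32%) and *Pecam1* (8.51%) and highest for *Jam2* (30.2%). In *Atp6ap2* iECKO it was lowest for *Pecam1* (2.25%) and highest for *Jam3* (21.5%). The libraries kept a similar order from gene to gene. Control library 1 was the highest control for 8 of the 9 genes and the highest of all 6 libraries for 6, and *Atp6ap2* iECKO library 3 was the lowest of its genotype for 8 and the lowest of all 6 for 5.

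Because most of the 9 genes moved together from library to library, each was also set against *Cdh5* in the same library, a ratio that does not depend on how a library was scaled. *Tjp1* was at 36.9%, 40.5% and 40.8% of *Cdh5* in the controls and at 30.5%, 34.7% and 32.7% in *Atp6ap2* iECKO. For *F11r* the ratio was 9.3%, 9.62% and 12.0% in the controls and 9.19%, 9.16% and 8.9% in *Atp6ap2* iECKO. *Jam2* stood at 6.34%, 5.24% and 5.2% of *Cdh5* in the controls and at 4.8%, 3.72% and 3.88% in *Atp6ap2* iECKO. These 3 of the 8 ratios were lower in *Atp6ap2* iECKO without overlap, at 0.828, 0.888 and 0.738 times the control ratio, and 0 were higher without overlap. Of the 14455 other genes tested, the ratio to *Cdh5* was lower without overlap for 12.6% and higher for 5.24%. An exact two-sided permutation test gave *P* = 0.1 for each of the 3, the smallest value that 3 against 3 libraries allow, and 0.2667 after adjustment over the 8 ratios. *Cldn5*, at 33.4%, 29.5% and 37.4% of *Cdh5* in the controls and 32.0%, 30.4% and 33.3% in *Atp6ap2* iECKO, overlapped between genotypes, as did *Ocln*, *Esam*, *Jam3* and *Pecam1*. With all libraries brought to the same *Cdh5* level, limma called 0 of the other 8 genes, the lowest adjusted *P* being 0.177 for *Jam2* and 0.257 for *Tjp1*, and the calls over all genes shifted from 719 lower and 474 higher to 454 lower and 92 higher.

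**Figure D4:**
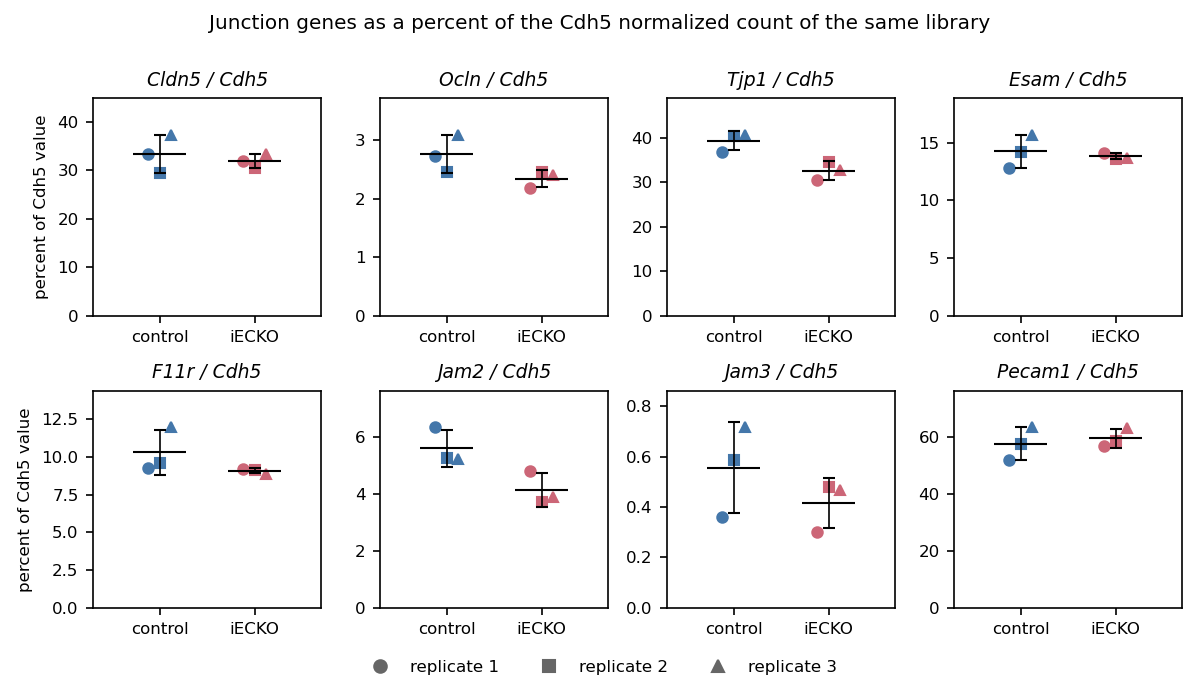
Ratio of each of the other 8 junction genes to *Cdh5* in the same library, in percent on a linear axis from 0, with 3 points per genotype and the mean and SD of each. *Tjp1*, *F11r* and *Jam2* separate, with *Atp6ap2* iECKO below the controls, and the other 5 overlap.

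Over the 6 libraries, the genes whose log2 level followed that of *Cdh5* most closely were *Lrrc32* (Pearson r 0.999), *Tnrc6c* (0.997), *Pkn2* (0.993), *Kpna4* (0.990) and *Ankhd1* (0.990), of 11320 genes with a mean of at least 100. None of these 5 was called between genotypes. Of the junction genes, r with *Cdh5* was 0.900 for *Esam*, 0.880 for *Pecam1* and 0.769 for *Cldn5*, and lower for the rest down to -0.631 for *Jam3*. These coefficients describe 6 libraries that may differ in depth and were normalized together, and are given without a test.

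Other junction genes from 5 lists (adherens junction partners, tight junction scaffolds, other claudins, connexins, and contact receptors) changed in a few cases. The lists held 53 genes, of which 45 were tested, and limma called 4 lower and 1 higher, with a median log2 difference of -0.12. Over all genes tested, 8.25% were called, 4.97% lower and 3.28% higher. In the 4 libraries that hold *Xist*, where limma called 0 genes lower and 1 higher of all 14456, the log2 differences were -1.61 for *Cdh2*, -1.07 for *Gja4*, -1.03 for *Gja5*, -1.04 for *Clmp* and 0.45 for *Cgnl1*. The 4 connexin genes had 2 of 4 called lower, with a median of -0.75. *Gja4*, which encodes connexin 37 of endothelial gap junctions, was at 4847, 5837 and 6035 normalized counts in the controls and at 2856, 2478 and 2241 in *Atp6ap2* iECKO. It fell by 1.14 on the log2 scale (SE 0.12, adjusted *P* = 0.0073 by limma), with no overlap between genotypes. *Gja5*, encoding the arterial connexin 40, was at 2142, 2050 and 1986 in the controls and at 1231, 754.7 and 850.7 in *Atp6ap2* iECKO, and fell by 1.15 (SE 0.17, adjusted *P* = 0.0113 by limma). Without *Atp6ap2* iECKO library 3 the adjusted *P* of *Gja5* was 0.0504 at a log2 difference of -1.09, and *Gja4* was called with any 1 library left out. The gene *Gpr89*, with a mean of 304.5 normalized counts, overlaps *Gja5*, so that reads shared by both cannot be told apart. For the other connexins, *Gja1* had a log2 difference of -0.36 (SE 0.18, adjusted *P* = 0.268 by limma), and *Gjc1* was not called either. Both connexin calls held with the libraries at the same *Cdh5* level (adjusted *P* = 0.00243 for *Gja4* and 0.00397 for *Gja5* by limma).

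Of the 12 adherens junction partners, 1 was called lower and 0 higher, with a median log2 difference of -0.13. It was *Cdh2*, the gene of N-cadherin, by which endothelial cells bind pericytes and which mesenchymal cells also express. *Cdh2* was at 568.4, 521.6 and 521.1 normalized counts in the controls and at 167.7, 213.7 and 187.1 in *Atp6ap2* iECKO, and fell by 1.50 on the log2 scale (SE 0.14, adjusted *P* = 0.0057 by limma). The most abundant of the list, *Ptprb*, encodes the phosphatase VE-PTP that binds VE-cadherin and TIE2. It was at 75165, 61489 and 54908 in the controls and at 46605, 40865 and 32718 in *Atp6ap2* iECKO. The groups of *Ptprb* did not overlap, but its log2 difference of -0.68 (SE 0.17) missed the threshold with a limma adjusted *P* of 0.0527. Relative to *Cdh5* in the same library, *Ptprb* was at 67.8%, 68.1% and 71.7% in the controls and at 45.9%, 41.4% and 37.2% in *Atp6ap2* iECKO. With equal *Cdh5* levels, an alternative chosen after seeing the data, *Ptprb* was called (adjusted *P* = 0.00146 by limma). It was past the threshold in 6 of 22 alternatives. With any 1 library left out it was not called (adjusted *P* = 0.0554 to 0.18 by limma), at log2 differences between -0.79 and -0.54. *Ctnnb1*, whose product beta-catenin binds VE-cadherin, had a log2 difference of -0.11 (SE 0.11) and was not called.

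Of the 11 tight junction scaffold and related genes, 1 was called higher and 0 lower, with a median of 0.14. *Cgnl1*, which encodes paracingulin, an adaptor of junctions to the cytoskeleton, was at 4738, 5092 and 4460 normalized counts in the controls and at 6094, 6996 and 7374 in *Atp6ap2* iECKO. It rose by 0.52 on the log2 scale (SE 0.10, adjusted *P* = 0.0219 by limma), but its call was lost with the libraries at the same *Cdh5* level (adjusted *P* = 0.197) and without control library 3 (0.0771), *Atp6ap2* iECKO library 2 (0.0894) or *Atp6ap2* iECKO library 3 (0.0894 by limma). Its log2 difference stayed of like size there, at 0.45 with equal *Cdh5* levels and between 0.46 and 0.50 without those libraries. Of the 17 other claudins, 11 were tested and 0 called, and the most abundant, the alveolar epithelial *Cldn18*, had a log2 difference of -0.13 (SE 0.34). Among 9 contact receptors, 7 of them tested, *Clmp*, a relative of the JAMs, was called lower. It was at 264.2, 365.5 and 349.0 normalized counts in the controls and at 145.0, 178.9 and 156.4 in *Atp6ap2* iECKO, a fall of 1.01 on the log2 scale (SE 0.18, adjusted *P* = 0.0192 by limma). The call of *Clmp* was lost without control library 2 or 3 or *Atp6ap2* iECKO library 2 or 3 (adjusted *P* = 0.052 to 0.0784 by limma) and at equal *Cdh5* levels (0.0687). The log2 difference of *Clmp* remained between -1.10 and -0.93 without those libraries and at -1.08 with equal *Cdh5* levels. The most abundant contact receptor gene, *Mcam*, was not called, with a log2 difference of 0.10 (SE 0.13).

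The identity of the cells was checked with markers that include none of the 9 genes. The summed level of 17 endothelial markers, led by *Kdr*, was 292314, 264393 and 241551 normalized counts in the controls and 281564, 274236 and 251842 in *Atp6ap2* iECKO, in the same order of libraries within each genotype as the junction genes. Of these 17, the defining marker *Tek* was called lower, with a log2 difference of -0.53 (SE 0.11, adjusted *P* = 0.0292 by limma), and *Cd34* higher, with 0.43 (SE 0.10, adjusted *P* = 0.0448 by limma). The other defining marker, *Kdr*, had a log2 difference of 0.17 (SE 0.14) and was not called. Of 7 lymphatic endothelial markers 0 were called, with *Lyve1* the most abundant and *Prox1* at a log2 difference of 0.12 (SE 0.19). By sign, 6 of the lymphatic markers were higher and 1 lower in *Atp6ap2* iECKO. Their median log2 difference was 0.21, against 0.005 for all genes tested.

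Markers of fibroblasts and of mural cells (pericytes and smooth muscle) were lower in the *Atp6ap2* iECKO libraries. Of 12 fibroblast markers, 11 were tested and 8 called lower, and their sum, led by *Mfap4*, was 79400, 124469 and 108672 normalized counts in the controls and 39472, 30148 and 27308 in *Atp6ap2* iECKO. The defining fibroblast genes *Col1a1* and *Col1a2* fell by 1.62 and 1.60 on the log2 scale (adjusted *P* = 0.0106 and 0.00848 by limma). Of 13 mural markers 8 were called lower, and their sum, led by *Pdgfrb*, was 13918, 20220 and 20925 in the controls and 7350, 5991 and 5751 in *Atp6ap2* iECKO. Of the defining mural genes, *Tagln* fell by 1.29 (adjusted *P* = 0.0208) and *Acta2* had a log2 difference of -1.45 (adjusted *P* = 0.0504 by limma). These markers moved with the genotype as *Cdh2*, *Clmp*, *Gja4* and *Gja5* did, and their part in those results was not tested. Within a genotype the 4 genes did not order the libraries alike. Control library 1, with the lowest fibroblast and mural sums of the controls, was the lowest control for *Clmp* and *Gja4* and the highest for *Cdh2* and *Gja5*. *Atp6ap2* iECKO library 1, with the highest sums of its genotype, was its lowest for *Cdh2* and *Clmp* and its highest for *Gja4* and *Gja5*.

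Markers of epithelial cells, leukocytes and platelets were present and varied by library. The sum of 18 epithelial markers, led by *Sftpc*, was 36261, 32408 and 82323 normalized counts in the controls and 47327, 39548 and 40081 in *Atp6ap2* iECKO, and 1 of the 18, *Scgb1a1*, was called higher. Their defining genes *Epcam* and *Cdh1* had log2 differences of -0.23 (SE 0.40) and -0.09 (SE 0.33), and control library 3, the highest for the sum, was the lowest control for 5 of the 9 junction genes. For 17 leukocyte markers, led by *Lyz2*, with *Ptprc* and *Cd68* as defining genes, the sum was 15400, 8362 and 13551 in the controls and 16986, 6744 and 20404 in *Atp6ap2* iECKO, with 0 called. JAM-A, JAM-C, ESAM and PECAM-1 are also found on platelets, whose 10 markers, led by *Gp1ba*, summed to 4556, 2232 and 1647 in the controls and to 3907, 1861 and 2271 in *Atp6ap2* iECKO. Library 1 of each genotype was thus the highest for platelet markers, with the defining gene *Pf4* at 463.3 and 407.3 and *Ppbp* at 415.7 and 224.1. None of the 9 tested platelet markers was called. Leaving out both libraries numbered 1 was an alternative chosen after seeing the data. In that setting limma called 698 genes lower and 318 higher of 14456, 0 of them among the 9 junction genes. The log2 differences of the 9 genes then lay between -0.29 and 0.17. The value of *Ocln* moved most there, from -0.17 to -0.02. Of the genes whose products were named above for platelets, *F11r* moved from -0.11 to -0.09 and *Jam3* from -0.33 to -0.29. *Pecam1* moved from 0.12 to 0.17, and *Esam* stayed at 0.03. The part of platelets in these values was not tested. Mesothelial transcripts were scarce, with *Msln* at means of 237.5 and 190.4 and *Upk3b* at 3.1 and 1.2 normalized counts.

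**Figure D5:**
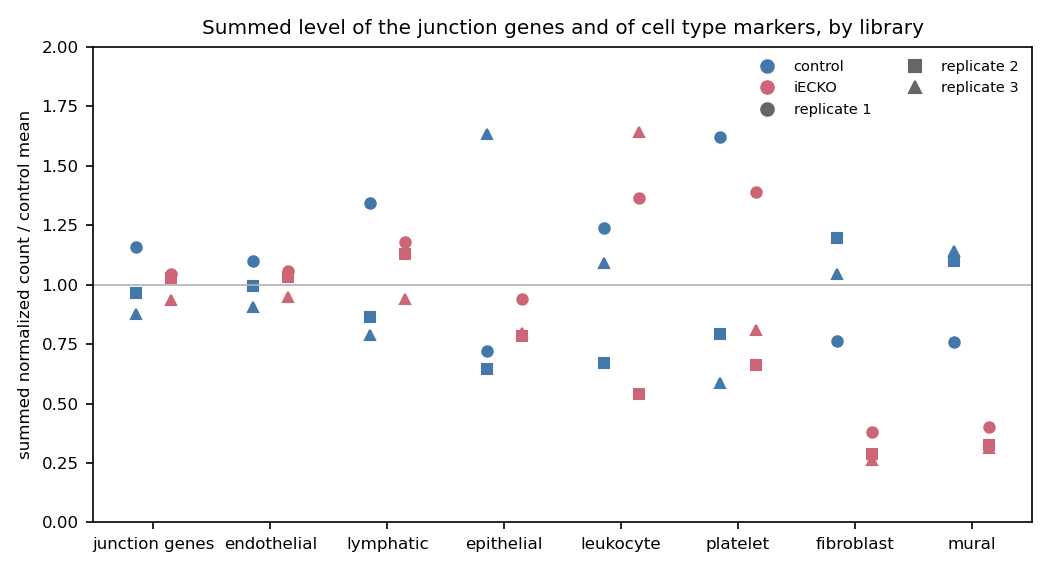
Summed normalized counts of 7 cell type marker lists (mesothelial markers are not drawn) and of the 9 junction genes in each library, relative to the mean of the 3 controls. The junction and endothelial sums of the genotypes overlap near 1, while the fibroblast and mural sums of the *Atp6ap2* iECKO libraries lie below all controls.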

How the data were processed

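RNA-Seq of iLECs was analysed from 1 table with a value for each of 24972 symbols in each of 6 libraries. The authors aligned TruSeq mRNA reads to mm10 (GRCm38) with BaseSpace tools and deposited a normalized signal per gene, an estimated count scaled per library. The labels call it raw, but the values are not whole, and the median ratio to the geometric mean was 1.0036 in all 6 libraries. Reads could not be recovered, so no counting interval is given. Relative depth estimated from the steps between low values was 1.00 to 1.04 in controls and 1.25 to 1.55 in *Atp6ap2* iECKO. It is a rough estimate, since only 20.9% to 40.5% of the low values of a library were whole multiples of its step. The annotation the authors used is not given in the sources used here.

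Values were tested as the log2 of the value plus 1, which understates changes of low genes. Genes at 10 or more in at least 3 libraries entered limma 3.58.1 (R 4.3.3) with genotype as the 1 factor and a trend of variance on level. The Benjamini-Hochberg adjustment ran over 14456 genes (threshold 0.05). Single ratios were compared by exact two-sided permutation tests (scipy 1.17.1). Coordinates and exon lengths came from GENCODE M21, in which 24445 symbols (97.9%) had a length. Named genes were the 9, *Atp6ap2*, *Xist*, list genes past the threshold, each list's most abundant gene, the first 2 markers of each cell type and the 5 genes most like *Cdh5*. *Gja1*, *Gjc1*, *Ctnnb1*, *Cd34* and *Scgb1a1* were added after their values were seen. A gene that this rule names is not reported here. The members and lists were chosen with earlier results of these data known. Alternatives were other scalings, pseudocounts, filters, variance models, thresholds and subsets of libraries, a replicate block and an *Xist* covariate. Immunoblots, qPCR and imaging were not analysed here.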

Additional observations from a re-analysis of the deposited data

How the results depend on the processing

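The sign of *Ocln*, *Tjp1*, *F11r*, *Jam2*, *Jam3* and *Pecam1* was kept under all alternatives, and 0 of the 9 genes were called under any of them except for *Jam2* with the replicate block, *Cdh5* being constant and untested at equal *Cdh5* levels. The 3 log2 differences nearest 0 changed sign. With the 4 libraries that hold *Xist* only, *Cdh5* was at -0.0829, *Cldn5* at -0.0281 and *Esam* at -0.0355. With equal *Cdh5* levels, an alternative chosen after seeing the data, *Cldn5* was at -0.0631 and *Esam* at -0.0382. With 1 library left out, the range was -0.0619 to 0.20 for *Cdh5*, -0.0935 to 0.14 for *Cldn5* and -0.0312 to 0.10 for *Esam*, and also -0.26 to -0.03 for *Ocln*, -0.31 to -0.11 for *Tjp1*, -0.16 to -0.03 for *F11r* and 0.06 to 0.18 for *Pecam1*.

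Of the 45 tested genes on the junction lists, the 4 called lower became 0 with the *Xist* libraries only, 7 at an adjusted *P* below 0.1 and 2 below 0.01. The 1 called higher became 0 without the mean-variance trend, with the *Xist* libraries only, at an adjusted *P* below 0.01 and at equal *Cdh5* levels. Leaving out 1 library gave 2 to 5 lower and 0 to 1 higher.

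The labels give no shared origin for a replicate number, and deviations of same-numbered libraries correlated by 0.25, 0.11 and 0.08 (-0.21 to 0.10 for other pairs), too weakly in 1 pair to treat the samples as paired. With the number as a replicate block, 1 of the 9 genes was called lower (*Jam2*, adjusted *P* = 0.042 by limma), 6 list genes were called lower and 2 higher, and all genes gave 838 lower and 670 higher.

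Over all genes, 719 lower and 474 higher became 235 and 69 without the trend, 519 and 248 with the *Xist* covariate, 0 and 1 with the *Xist* libraries only, 1079 and 908 below 0.1, 82 and 8 below 0.01, and 176 to 659 and 28 to 461 with 1 library left out. *Atp6ap2* was past the threshold in 1 of the 6 fits without a library. With 3 libraries per genotype and unknown read numbers, differences smaller than the intervals were not detectable here, and the causes of these shifts were not tested.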
